A study of Mus musculus with 2 samples.

Results

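Interferon gamma and the chemokine axis it feeds were followed across the cells of the mouse Achilles enthesis, the attachment of that tendon to the heel bone. The axis was taken as 7 genes of the 32285 counted, all present in the files by symbol: Ifng, which encodes the cytokine; Ifngr1 and Ifngr2, the ligand-binding and the signalling chain of its receptor; Irf1, a transcription factor that it induces; the chemokines Cxcl9 and Cxcl10; and Cxcr3, the receptor that binds both chemokines. The members were taken by symbol, with no threshold on their values, and their raw molecule counts (unique molecular identifiers, UMIs) were read in each library and each marker-defined cell class.

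The mice were of the SKG strain, which carries a Zap70 mutation and is prone to autoimmune arthritis, so both groups share that allele. The tail suspension group had the hindlimbs lifted off the ground by the tail, which unloads the Achilles tendon, and the non-tail suspension group did not. Each group is 1 droplet single-cell library (10x Genomics) of dissected, collagenase-digested enthesis from which red and dead cells were removed. The age and sex of the animals, the number pooled in a library, the length of suspension and any agent given to start arthritis are not given in the sources used here. With 1 library in each group there is no replicate, so no test was made; the 95% intervals below cover counting error only, and a difference between the libraries cannot be told apart from a difference between the animals or preparations behind them.

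After filtering, 13991 tail suspension and 10814 non-tail suspension cells were kept, with 156580161 and 118098425 UMIs. Median depth was 8362 UMIs in tail suspension cells and 4649 in non-tail suspension cells, and the median mitochondrial share was 3.1% and 1.46%. Class makeup differed widely: fibroblast-lineage cells numbered 6450 in tail suspension and 2018 in non-tail suspension, and neutrophil-like cells 1421 and 5299. Within a class the depth could run the other way, with a median of 12508.5 UMIs in tail suspension and 25218.5 in non-tail suspension for the fibroblast lineage. The libraries had 47 barcode sequences in common. Doublet calling marked 492 tail suspension and 133 non-tail suspension cells, fewer than the loading predicts, so doublets may remain.

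Interferon gamma is made mainly by activated T cells and natural killer (NK) cells. It binds a receptor of paired IFNGR1 and IFNGR2 chains on most nucleated cells, which signals through the kinases JAK1 and JAK2 to genes with GAS elements, and the IRF1 that is induced binds ISRE elements. CXCL9 and CXCL10 secreted by the responding cells attract CXCR3-bearing T and NK cells, which can bring in more interferon gamma, and in inflamed joints the axis is known for T cell recruitment.

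In the GENCODE annotation of GRCm38, the members are protein-coding genes. Ifng (ENSMUSG00000055170) lies on the plus strand at chr10:118441046-118445892, and Ifngr1 (ENSMUSG00000020009) is on the same chromosome at chr10:19591949-19610229, plus strand. Ifngr2 (ENSMUSG00000022965) is at chr16:91547072-91565623, plus strand, Irf1 (ENSMUSG00000018899) at chr11:53770014-53778374, plus strand, and Cxcr3 (ENSMUSG00000050232) at chrX:101731535-101734269, minus strand. Cxcl9 (ENSMUSG00000029417, chr5:92321347-92328079) and Cxcl10 (ENSMUSG00000034855, chr5:92346638-92348889) are neighbours on the minus strand, 18558 bases apart.

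The promoters of the 3 induced members are shown because their transcripts are the ones read below in receiver cells. Each sequence runs from 250 bases before to 50 bases after the transcription start, 5′ to 3′ on the gene's strand, from RefSeq on GRCm38.p6; capitals mark motif matches found on either strand. The windows are chr5:92328030-92328329 for Cxcl9 (minus strand), chr5:92348840-92349139 for Cxcl10 (minus strand) and chr11:53769764-53770063 for Irf1 (plus strand, 1 of 2 RefSeq entries).
Cxcl9: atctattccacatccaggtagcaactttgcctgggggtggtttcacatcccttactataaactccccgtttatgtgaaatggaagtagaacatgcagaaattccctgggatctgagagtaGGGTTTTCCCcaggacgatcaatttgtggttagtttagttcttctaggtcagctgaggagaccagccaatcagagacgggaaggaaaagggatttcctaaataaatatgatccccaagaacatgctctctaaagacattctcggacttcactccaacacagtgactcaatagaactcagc
Cxcl10: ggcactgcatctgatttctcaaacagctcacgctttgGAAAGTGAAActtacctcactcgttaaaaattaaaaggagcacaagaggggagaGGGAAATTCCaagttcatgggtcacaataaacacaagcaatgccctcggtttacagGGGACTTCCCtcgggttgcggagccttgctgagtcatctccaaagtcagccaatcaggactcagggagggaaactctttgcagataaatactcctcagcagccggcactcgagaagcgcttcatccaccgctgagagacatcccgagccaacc
Irf1: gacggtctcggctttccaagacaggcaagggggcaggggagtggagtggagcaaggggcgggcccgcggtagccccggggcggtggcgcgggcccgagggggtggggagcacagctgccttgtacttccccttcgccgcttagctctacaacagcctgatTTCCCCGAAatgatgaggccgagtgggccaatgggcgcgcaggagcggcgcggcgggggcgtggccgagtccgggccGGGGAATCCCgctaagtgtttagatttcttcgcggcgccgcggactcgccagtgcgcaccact
The letters searched on both strands were GAAA and GAAA with 2 free bases between them for the ISRE, TTCNNNGAA for the GAS element, and GGGA and CC with 4 free bases between them for NF-kB, and 3.44%, 8.30% and 20.7% of the 32851 promoters in the table held each. The Cxcl10 window held an ISRE match 213 bases before the start and NF-kB matches at 159 and 103 bases before it. The Irf1 window held a GAS match 90 bases before the start and an NF-kB match 13 bases before it, and the Cxcl9 window held an NF-kB match 130 bases before it. Of the other members, Ifng had a GAS match (TTCAGAGAA, 249 bases before the start), Ifngr2 had 2 overlapping NF-kB matches, and Ifngr1 and Cxcr3 had none of the 3 motifs in this window. A match describes the letters only.

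Ifng was found mainly in clustered lymphocytes in both libraries and was far lower in tail suspension. T and NK lineage cells (clusters named T-, gamma-delta T- or NK-like) held 114 of 120 Ifng UMIs in tail suspension and 1157 of 1185 in non-tail suspension, or 95.0% and 97.6% of all Ifng. Where each cell was instead classed by its own marker UMIs, without clusters, the shares were 38.3% in tail suspension and 79.6% in non-tail suspension. As counts per 1000000 UMIs of these cells (CPM), Ifng stood at 21.8 CPM (18.0 to 26.1) in 1054 tail suspension cells and 291 CPM (275 to 308) in 623 non-tail suspension cells. The log2 ratio of tail over non-tail suspension was -3.74 (-4.03 to -3.46), a level 13.4-fold lower in tail suspension; it was -2.99 in thinned cells (1000 UMIs each), -2.85 as a mean over cells and -4.37 by own markers. Over all kept cells the levels were 0.766 and 10.0 CPM, with a log2 ratio of -3.71.

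Fewer lymphocytes carried Ifng in tail suspension, and those that did carried less of it. At least 1 Ifng UMI was seen in 44 tail suspension cells (4.17%) and in 99 non-tail suspension cells (15.9%), at median depths of 3906 and 5340 UMIs. In neutrophil-like cells, which are not a usual source of Ifng, 0.0704% of tail suspension and 0.0755% of non-tail suspension cells had an Ifng UMI, at median depths of 4263 and 2812 UMIs. When every cell was thinned to 1000 UMIs, 16 of 1015 tail suspension lymphocytes (1.58%) and 37 of 616 non-tail suspension lymphocytes (6.01%) carried Ifng, and 39 and 7 shallower cells were left out.

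**Figure D1:**
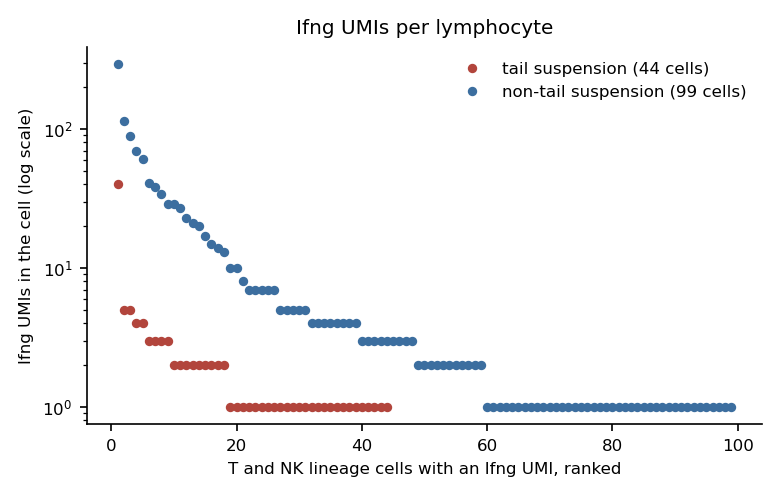
Ifng UMIs (y axis, log scale) in each T and NK lineage cell that had any, ranked by count (x axis), in the tail suspension (red, 44 cells) and non-tail suspension (blue, 99 cells) libraries. A single tail suspension cell reached 10 UMIs, against 20 non-tail suspension cells.

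A few cells held most of the transcript. The richest tail suspension cell had 40 Ifng UMIs, 35.1% of its class total, and the next had 5, 5, 4 and 4. In non-tail suspension the top 5 cells had 293, 114, 89, 70 and 61 UMIs, and the first of them held 25.3% of the total. Cells with 10 or more UMIs numbered 1 in tail suspension and 20 in non-tail suspension, and those 20 together held 968 UMIs. Without the richest cell of each library the levels were 14.1 CPM in tail suspension and 218 CPM in non-tail suspension.

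Cells were then gated on single UMIs of lineage genes, so a gate's size depends on depth. The CD8 gate (Cd8a or Cd8b1) and the NK gate (Ncr1 or Klrb1c without Cd3 chains) had the highest Ifng levels of both libraries. CD8-gated cells had 66 Ifng UMIs in 90 tail suspension cells, or 111 CPM (85.8 to 141), and 541 UMIs in 55 non-tail suspension cells, or 1216 CPM (1116 to 1323). They supplied 55.0% of tail suspension and 45.7% of non-tail suspension Ifng, and 14.4% and 47.3% of them had a UMI. NK-gated cells had 68.3 CPM in 67 tail suspension cells and 623 CPM in 80 non-tail suspension cells, which was 15.8% and 30.1% of each library's Ifng. CD8-gated and NK-gated intervals overlapped each other in tail suspension (85.8 to 141 and 41.1 to 107 CPM) and did not in non-tail suspension. The richest CD8-gated cell held 40 of the 66 Ifng UMIs in tail suspension and 293 of the 541 in non-tail suspension. The richest NK-gated cell held 4 of 19 and 89 of 357. The CD8-gated levels and shares thus rest largely on a single cell in each library. Levels without these cells were not computed, so no order of the CD8 and NK gates is read.

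CD4-gated cells, which include T helper cells, held little Ifng in tail suspension. They had 3 Ifng UMIs in 219 tail suspension cells, or 2.72 CPM (0.561 to 7.94), and 146 UMIs in 210 non-tail suspension cells, or 110 CPM (93.2 to 130), a log2 ratio of -5.34 (-7.64 to -3.77). A single non-tail suspension cell held 114 of those 146 UMIs. Regulatory T cells, gated on Foxp3, had 1.63 CPM in tail suspension (2 UMIs in 1 cell) and 41.9 CPM in non-tail suspension (19 UMIs in 2 cells, 14 of them in 1), and gamma-delta T cells 9.88 and 57.6 CPM. Ifng was lower in tail suspension in 6 of 6 gates, ungated lymphocytes included (12 against 84.5 CPM).

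**Figure D2:**
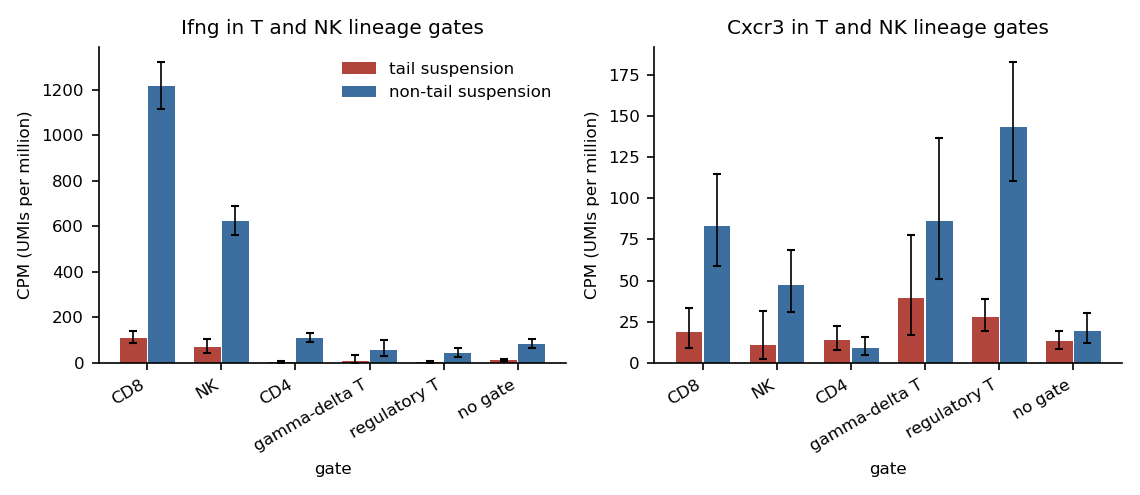
Ifng (left) and Cxcr3 (right) levels in CPM (y axis) for the 6 lymphocyte gates (x axis), tail suspension red and non-tail suspension blue; bars are the level of 1 library and error lines its 95% counting interval. Ifng was highest in the CD8 and NK gates, Cxcr3 in the regulatory and gamma-delta T gates; the CD4 gate is the one in which Cxcr3 was not lower in tail suspension.

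Ifng was also read by cluster. The NK-like cluster 30 had 67.6 CPM of Ifng in tail suspension and 498 CPM in non-tail suspension, and the main T cell cluster 10 had 33.2 and 302 CPM. The proliferating cluster 14, marked by Top2a, had 4.99 CPM in 41 tail suspension cells and 329 CPM in 36 non-tail suspension cells. Cluster 11, led by the regulatory T cell genes Ctla4, Tnfrsf4 and Il2ra, had 1.75 and 63.1 CPM. Cluster 27, led by Gata3, Areg and Il1rl1, had no Ifng UMI in either library.

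With classes taken from clusters, Ifng outside T and NK lineage cells was at the edge of detection. Macrophage-like cells had 0 UMIs in both libraries, which allows at most 0.301 CPM in tail suspension and 0.257 CPM in non-tail suspension, and B cells had 0 in both. Fibroblast-lineage cells had 2 UMIs in tail suspension and 17 in non-tail suspension, where 1 cell had 10 of them.

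Genes that make or induce interferon gamma were lower in part. In T and NK lineage cells 4 of 11 measured members of a list of inducers and makers were past 2-fold lower in tail suspension, where 4.65% of all 11089 genes measured in this class were. These were Tbx21, the T-bet factor of type 1 lymphocytes (7.26 against 31.0 CPM, log2 ratio -2.09), Nkg7, a cytotoxic granule gene (248 against 847 CPM, -1.77), and the IL-12 receptor chains Il12rb2 (8.02 against 22.2 CPM, -1.47) and Il12rb1 (8.21 against 19.1 CPM, -1.22). Eomes, the related T-box factor, had 49.8 CPM in tail suspension and 53.9 CPM in non-tail suspension, and Ccl5 had 1366 and 1505 CPM. On the side of the inducing cytokines, macrophage-like cells had 5.87 CPM of Il15 in tail suspension and 15.4 CPM in non-tail suspension, and Il27 had 0.73 and 4.67 CPM. Of 9 list members measured in this class, 4 were past 2-fold lower in tail suspension (background 4.22%) and 1 past 2-fold higher (16.0%). The class pools clusters that the libraries filled unequally, and these genes were not read within them. In cluster 3, an unnamed myeloid cluster led by the antigen-presentation genes H2-Ab1, H2-Aa and Cd74, Il18 was also lower (23 against 250 UMIs, log2 ratio -1.87), while Il12b, a chain of IL-12, was higher in tail suspension (3.33 against 0.56 CPM). There 6 of 11 measured list members were past 2-fold lower (background 5.46%) and 2 past 2-fold higher (8.94%).

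Markers of other cell types in the lymphocyte class did not move as 1 block. The summed level of the 14 macrophage markers was 514 CPM in tail suspension and 692 CPM in non-tail suspension, that of the 13 neutrophil markers 1582 and 2467 CPM, and that of the 19 fibroblast markers 2085 and 780 CPM, with at least 18 of the 19 seen in each library. Their part in the lymphocyte results was not tested. Ifng UMIs in those classes were 0 in both libraries for macrophage-like cells. Neutrophil-like cells had 1 in tail suspension and 5 in non-tail suspension, and fibroblast-lineage cells 2 and 17.

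The ligand-binding chain Ifngr1 was found in every receiver class and was highest in T and NK lineage cells. T and NK lineage cells had 442 CPM (424 to 461) in tail suspension and 770 CPM (743 to 798) in non-tail suspension, a log2 ratio of -0.80 (-0.88 to -0.72), and 75.8% and 89.2% of cells had a UMI. It was lower in tail suspension in 6 of 6 gates, with 353 and 847 CPM in CD8-gated cells and 816 and 1030 CPM in NK-gated cells. Monocyte-like cells came next in both libraries, at 331 CPM (317 to 346) in tail suspension and 267 CPM (250 to 285) in non-tail suspension.

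In myeloid cells Ifngr1 went both ways. It was higher in tail suspension in monocyte-like cells (log2 ratio 0.31, 0.20 to 0.43), in osteoclast-like cluster 2 (116 against 94.3 CPM, 0.29) and in cluster 0, an unnamed myeloid cluster led by Ccl6, Ccl9 and Ctss (221 against 122 CPM, 0.86). Cluster 2 was led by Mmp9, Ctsk and Acp5, but also by the granulocyte progenitor markers Prtn3 and Mpo, so it may not be of 1 cell type. Ifngr1 was lower in macrophage-like cells (139 against 187 CPM, -0.43) and neutrophil-like cells (68.2 against 117 CPM, -0.78). The fibroblast lineage had 68.0 CPM in tail suspension and 71.0 CPM in non-tail suspension (-0.06), and 7 of its 9 clusters were lower in tail suspension. The sign of this small pooled difference changed with the summary: it was 0.30 in thinned cells, 0.22 as a mean over cells and -0.41 as the mean ratio within clusters of at least 100 cells. Of 10 classes with at least 100 cells in each library, Ifngr1 was lower in 6 and higher in 4. The differences in B cells, mural-like cells and cluster 3 were within counting error.

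Below the T and NK lineage and monocyte-like cells the order of Ifngr1 levels was loose. In tail suspension, cluster 0 followed the monocytes without overlap, and clusters 4 and 3 followed with intervals that overlapped each other (171 CPM each). In non-tail suspension, macrophage-like cells, clusters 3 and 4, adipocyte-like and blood endothelial-like cells each had an interval that overlapped the next, between 187 and 163 CPM. Fibroblast-lineage, mural-like (pericyte and smooth muscle) and B cells were among the lowest 4 in both libraries, with intervals that overlapped each other in each library. Neutrophil-like cells joined them in tail suspension.

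Ifngr2, the signalling chain, had another order: monocyte-like cells were highest and T and NK lineage cells among the lowest. Monocyte-like cells had 118 CPM (109 to 127) in tail suspension and 167 CPM (153 to 182) in non-tail suspension, while T and NK lineage cells had 32.3 CPM (27.6 to 37.5) and 31.7 CPM (26.4 to 37.8). Ifngr2 was lower in tail suspension in 9 of the 10 compared classes. Among these, the differences in B cells (-0.24, -0.69 to 0.20) and cluster 0 (-0.18, -0.43 to 0.08) were within counting error. The fibroblast lineage had 32.8 CPM in tail suspension and 48.5 CPM in non-tail suspension (log2 ratio -0.56, -0.64 to -0.49), and all 9 of its clusters were lower in tail suspension. Neutrophil-like cells had 80.9 and 129 CPM (-0.67), and osteoclast-like cells 63.0 and 106 CPM (-0.76). In T and NK lineage cells the Ifngr2 log2 ratio was 0.03 (-0.32 to 0.37), beside -0.80 for Ifngr1. NK-gated cells had 1 Ifngr2 UMI in tail suspension and 4 in non-tail suspension, or 3.60 and 6.99 CPM.

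**Figure D3:**
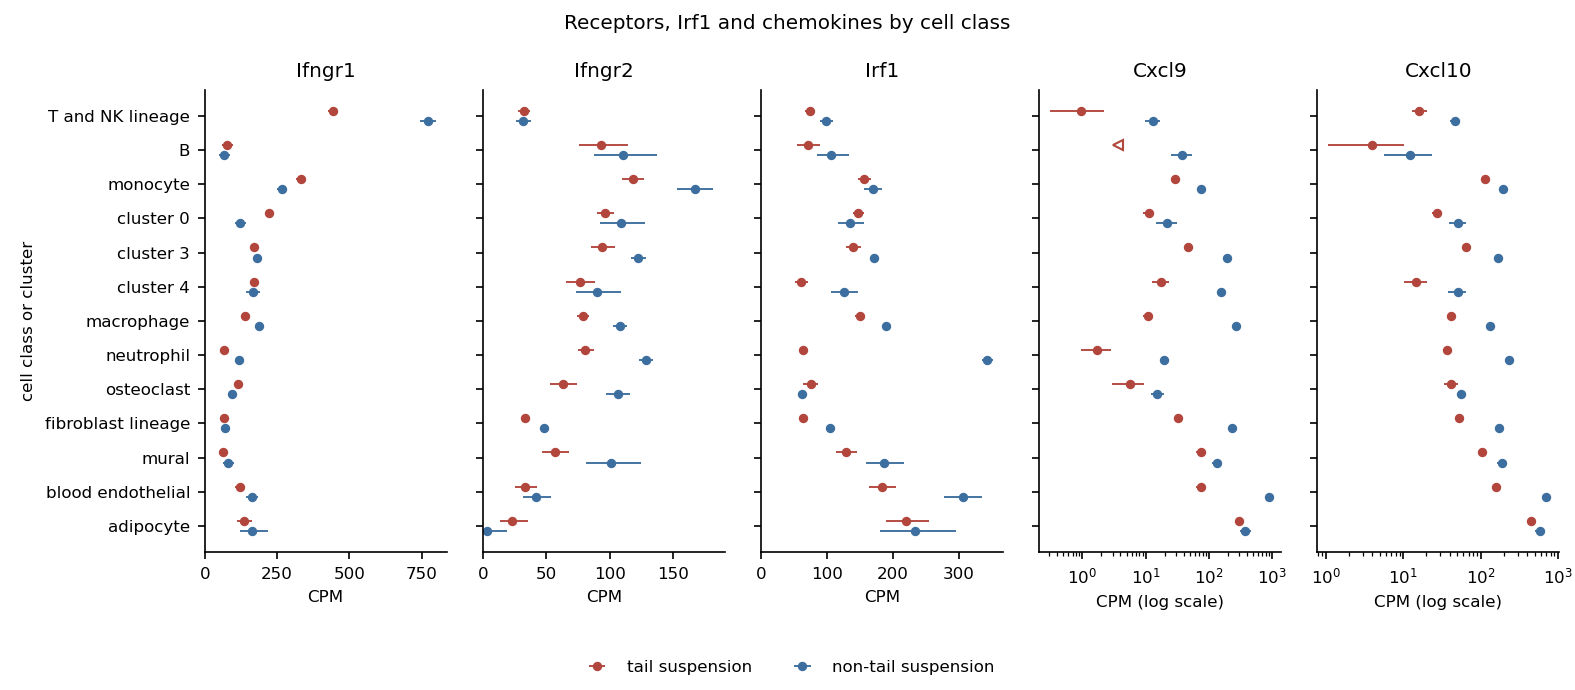
Levels of Ifngr1, Ifngr2, Irf1, Cxcl9 and Cxcl10 in CPM (x axes; linear for the first 3, log for the chemokines) in 13 classes and unnamed clusters (y axis), tail suspension red above non-tail suspension blue; points are 1 library and lines its 95% counting interval. The open triangle is the upper limit for Cxcl9 in tail suspension B cells, which had 0 UMIs. Ifngr1 peaks in T and NK lineage cells; both chemokines lie further left in tail suspension in every class shown.

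Irf1, the first transcription factor induced by the pathway in many cells, was lower in tail suspension in 8 of the 10 compared classes, by unequal amounts. Neutrophil-like cells differed most, at 64.3 CPM (58.9 to 70.0) in tail suspension and 343 CPM (335 to 352) in non-tail suspension, a log2 ratio of -2.42 that was -1.63 in thinned cells and -1.66 as a mean over cells. The 14 macrophage markers in these cells summed to 497 CPM in tail suspension and 1024 CPM in non-tail suspension, and their part in this result was not tested. Fibroblast-lineage cells had 64.2 CPM (62.6 to 65.8) in tail suspension and 104 CPM (102 to 107) in non-tail suspension, a log2 ratio of -0.70, and all 9 clusters were lower; the mean ratio within clusters of at least 100 cells in each library was -1.31. In the inflammatory fibroblast-like cluster 15, which held 710 cells in each library, Irf1 stood at 36.7 CPM in tail suspension and 97.0 CPM in non-tail suspension (-1.40).

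Different clusters held most of the neutrophil-like cells in each library, and Irf1 differed less within some of them. Cluster 20, led by Asprv1, Acod1, Ccl3 and Il1b, held 113 tail suspension and 3234 non-tail suspension cells, and within it Irf1 was 458 and 355 CPM, so tail suspension was higher there (0.37, 0.07 to 0.66). Cluster 22, led by Acod1, Cstdc4 and Asprv1, held 1 tail suspension and 570 non-tail suspension cells, with 673 CPM of Irf1 in the non-tail suspension cells. Clusters 13 and 18, with most of the tail suspension neutrophils, had 98.6 and 18.4 CPM in tail suspension against 174 and 52.0 CPM in non-tail suspension.

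Other classes differed by less in Irf1. Monocyte-like cells had 156 CPM in tail suspension and 170 CPM in non-tail suspension (-0.12, -0.27 to 0.04), and cluster 0 had 147 and 135 CPM (0.12). Macrophage-like cells had 150 and 190 CPM (-0.34) and T and NK lineage cells 74.5 and 98.4 CPM (-0.40). In tail suspension the levels from adipocyte-like through blood endothelial-like, monocyte-like, macrophage-like and cluster 0 cells each overlapped the next, and in non-tail suspension all neighbours from neutrophil-like cells down to T and NK lineage cells did.

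Most Cxcl9 UMIs lay in the fibroblast lineage in both libraries, and Cxcl9 was lower in tail suspension in 10 of 10 compared classes. For B cells this rests on 0 UMIs in tail suspension and 28 in non-tail suspension, 25 of them in 1 cell. The fibroblast lineage held 70.9% of the library's Cxcl9 UMIs in tail suspension and 59.2% in non-tail suspension. It also held 98797056 of all 156580161 UMIs in tail suspension and 55449429 of all 118098425 in non-tail suspension. In the order of classes by Cxcl9 level it came at place 5 in tail suspension and place 4 in non-tail suspension. Its Cxcl9 level was 33.1 CPM (32.0 to 34.3) in tail suspension and 231 CPM (227 to 235) in non-tail suspension. The log2 ratio was -2.80 (-2.86 to -2.75), or 6.97-fold lower. Of the fibroblast-lineage cells, 288 (4.47%) in tail suspension and 540 (26.8%) in non-tail suspension had a Cxcl9 UMI. In cells thinned to 1000 UMIs the shares were 1.63% and 9.36%. As a background, T and NK lineage cells, which are receivers of the chemokine, had a Cxcl9 UMI in 0.38% of tail suspension and 4.82% of non-tail suspension cells, at median depths of 3906 and 5340 UMIs.

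Expression was concentrated in few fibroblasts: the 10 richest held 33.1% of the class total in tail suspension and 19.4% in non-tail suspension, with up to 155 and 489 UMIs in a cell. Of the 9 fibroblast clusters, 8 were lower in tail suspension; the exception, cluster 28, had 7 non-tail suspension cells with no UMI. Cluster 15, equal in size in both libraries, had 31.3 CPM in tail suspension and 230 CPM in non-tail suspension (-2.88). Cluster 19, led by Cxcl5, Prg4 and Timp1, had 29.7 and 277 CPM (-3.22). The Cxcl14- and Apod-rich cluster 6 was the highest fibroblast cluster of both libraries, at 101 CPM in 1455 tail suspension cells and 346 CPM in 78 non-tail suspension cells. Tenocyte-like clusters differed from each other: cluster 23 (Col1a1, Thbs4) had 9.36 and 246 CPM, and cluster 24 (Angptl7, Fmod) 16.1 and 37.0 CPM.

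Different clusters also held most macrophage-like cells in each library, and Cxcl9 differed less within them than in the class. The class had 10.9 CPM (9.16 to 12.9) in tail suspension and 274 CPM (266 to 283) in non-tail suspension, a log2 ratio of -4.65 that ranged from -4.94 to -3.01 over other settings for the class as a whole, and 3.06% and 27.5% of cells had a UMI. Cluster 1, led by Pf4, C1qc, Mrc1 and Cd163, held 1041 tail suspension and 148 non-tail suspension cells and had 7.52 and 5.52 CPM (0.45, -0.43 to 1.45). Cluster 5, led by C1qb, Ccl8, Ms4a7 and Cd74, held 38 and 823 cells and had 106 and 322 CPM (-1.61). In cluster 1 the difference was not detectable at this depth.

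Vessel cells, though few, had the highest Cxcl9 of non-tail suspension. Blood endothelial-like cells had 74.3 CPM (62.2 to 88.1) in 170 tail suspension cells and 883 CPM (835 to 934) in 86 non-tail suspension cells, and 7.06% and 59.3% of them had a UMI. Adipocyte-like cells, 65 and 17 in number, had 301 and 380 CPM, and led the order in tail suspension. Mural-like cells had 74.2 and 136 CPM (-0.87, but -2.21 in thinned cells and -2.79 as a mean over cells). Among myeloid cells, cluster 3 had 47.3 and 194 CPM (-2.03) and monocyte-like cells 29.5 and 76.1 CPM (-1.37, but -2.60 with doublets kept and -2.43 by own markers). Blood endothelial-like and mural-like intervals overlapped in tail suspension, as did those of fibroblast-lineage and monocyte-like cells; in non-tail suspension the first 6 places of the order did not overlap.

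Cxcl10 was also lower in tail suspension in 10 of 10 compared classes. In B cells, with 4 UMIs in tail suspension and 9 in non-tail suspension, the difference was within counting error (log2 ratio -1.63, -3.78 to 0.21). The fibroblast lineage had 53.3 CPM (51.8 to 54.7) in tail suspension and 172 CPM (169 to 176) in non-tail suspension, a log2 ratio of -1.69 (-1.74 to -1.65) or 3.24-fold lower, and 10.9% and 28.5% of cells had a UMI. The mean ratio within clusters of at least 100 cells in each library was -2.63, against -3.05 for Cxcl9. In thinned cells the shares were 2.98% and 7.62%. All 9 fibroblast clusters were lower in tail suspension. Cluster 6 stood out in non-tail suspension, with 1370 CPM in 78 cells against 156 CPM in its 1455 tail suspension cells, and cluster 15 had 23.7 CPM in tail suspension and 106 CPM in non-tail suspension (-2.16).

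**Figure D4:**
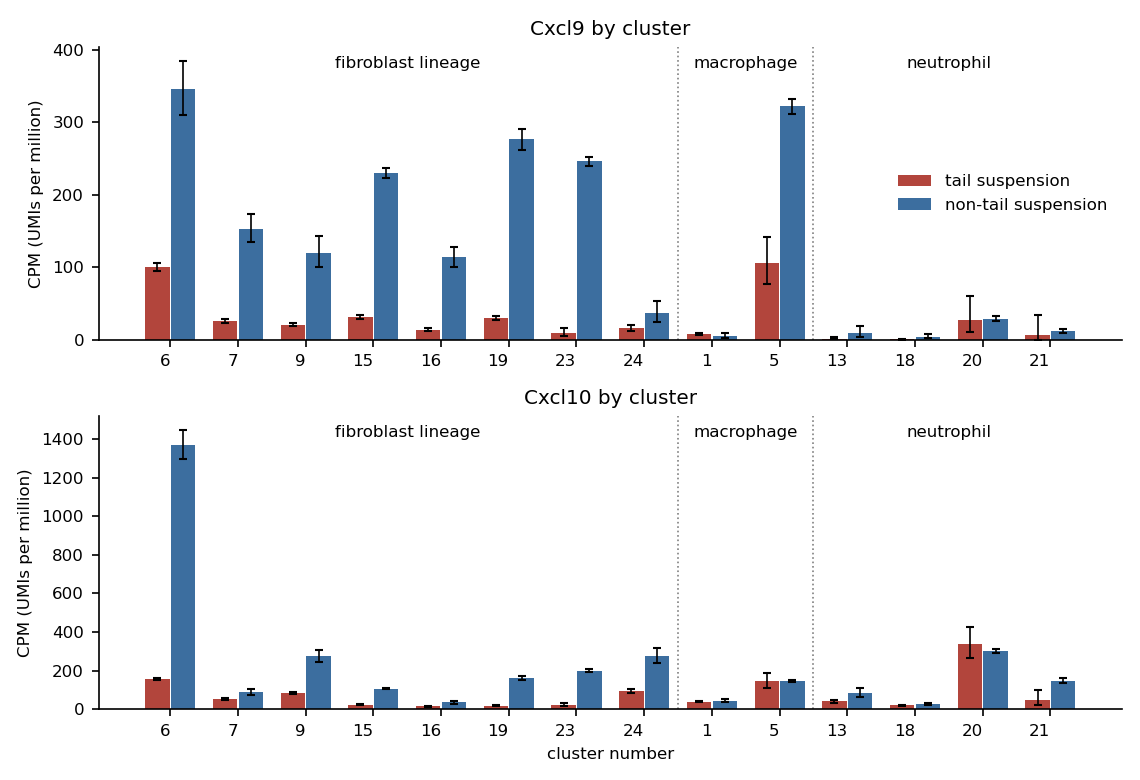
Cxcl9 (top) and Cxcl10 (bottom) in CPM (y axes) for each fibroblast-lineage, macrophage-like and neutrophil-like cluster with at least 30 cells in both libraries (x axis, cluster numbers), tail suspension red and non-tail suspension blue; error lines are 95% counting intervals. The fibroblast bars are lower in tail suspension in each cluster shown, while Cxcl10 in macrophage cluster 5 and neutrophil cluster 20 is nearly level.

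Neutrophil-like cells were another large Cxcl10 holder in non-tail suspension. They held 3.48% of the library's Cxcl10 UMIs in tail suspension and 20.7% in non-tail suspension, at 36.4 CPM (32.4 to 40.8) and 236 CPM (229 to 243), a log2 ratio of -2.70. Within cluster 20 the levels were 339 CPM (266 to 426) in tail suspension and 302 CPM (290 to 314) in non-tail suspension, and within cluster 18 they were 19.0 and 25.0 CPM; neither difference exceeded counting error. Cluster 13 had 40.1 and 83.5 CPM (-1.06), and cluster 21 had 49.7 and 147 CPM. Cluster 22 reached 450 CPM in non-tail suspension.

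Macrophage-like cells gave the same contrast between class and cluster for Cxcl10. The class had 41.4 CPM in tail suspension and 130 CPM in non-tail suspension (-1.66), whereas cluster 1 had 37.7 and 43.2 CPM (-0.20) and cluster 5 had 146 CPM in both (-0.01). Blood endothelial-like cells had 156 and 703 CPM, monocyte-like cells 114 and 195 CPM (-0.77), cluster 3 had 64.9 and 167 CPM (-1.36), and mural-like cells 106 and 189 CPM (-0.84, but -2.24 in thinned cells). Blood endothelial-like and adipocyte-like cells led the order in both libraries, overlapping in non-tail suspension; monocyte-like, mural-like, fibroblast-lineage and cluster 3 cells overlapped one after another there, between 195 and 167 CPM.

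The pooled balance of the chemokines lay further towards Cxcl10 in tail suspension in the fibroblast lineage and macrophage-like cells, but not in each of their clusters. Cxcl10 UMIs per Cxcl9 UMI were 1.61 in tail suspension and 0.746 in non-tail suspension for the fibroblast lineage, 3.79 and 0.476 for macrophage-like cells, and 2.11 and 0.795 for blood endothelial-like cells. Within macrophage cluster 5 they were 1.38 and 0.453, and within cluster 1 they were 5.01 and 7.83, the other way round. Mural-like cells (1.42 and 1.39), adipocyte-like cells (1.47 and 1.55) and cluster 0 (2.42 and 2.30) had nearly equal values, and fibroblast clusters 6 (1.55 and 3.96) and 24 (5.78 and 7.42) were lower in tail suspension.

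In the fibroblast lineage the chemokines were found in the same cells more often than the product of their separate shares. In fibroblast-lineage cells thinned to 1000 UMIs, 33 tail suspension cells had both Cxcl9 and Cxcl10, where the product of the shares gives 3.1, and 54 non-tail suspension cells had both, where it gives 14.3. Irf1 and Cxcl10 were together in 44 tail suspension fibroblasts against a product of 12.8, and in 32 non-tail suspension fibroblasts against 14.0. In neutrophil-like cells that pair was together in 12 tail suspension cells against 4.05 and in 190 non-tail suspension cells against 118. An excess was not seen in every class and pair. In non-tail suspension, Cxcl9 and Cxcl10 met in 7 cells of cluster 3 against 6.41. Irf1 and Cxcl9 met in 22 tail suspension fibroblasts against 7.02 and in 32 non-tail suspension fibroblasts against 17.2. In non-tail suspension that pair met in 26 neutrophil-like cells against 26.7 and in 16 macrophage-like cells against 17.5. Ifng and Cxcr3 shared 1 thinned lymphocyte in tail suspension and 2 in non-tail suspension, too few to read. The receptor chains Ifngr1 and Ifngr2 met in lymphocytes about as often as the product, in 12 cells against 14.4 in tail suspension and 11 against 12.3 in non-tail suspension.

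Markers of other types in the fibroblast class were near each other or went either way. The 14 macrophage markers summed to 1046 CPM in tail suspension and 964 CPM in non-tail suspension, the 12 T cell markers to 24.7 and 31.1 CPM, and the 13 neutrophil markers to 1118 and 1662 CPM. Every one of them had UMIs in both libraries, and their part in the fibroblast results was not tested. In macrophage-like cells the 19 fibroblast markers summed to 1341 CPM in tail suspension and 605 CPM in non-tail suspension. The 12 T cell markers summed there to 77.3 and 63.7 CPM, and the 13 neutrophil markers to 1441 and 1404 CPM. Their part in the macrophage results was not tested.

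Cxcr3, the receiver end of the axis, was lower in tail suspension lymphocytes. T and NK lineage cells had 95 UMIs in tail suspension and 178 in non-tail suspension, or 18.1 CPM (14.7 to 22.2) and 44.8 CPM (38.5 to 51.9), a log2 ratio of -1.30 (-1.68 to -0.94) or 2.47-fold lower. A Cxcr3 UMI was seen in 72 tail suspension cells (6.83%) and 85 non-tail suspension cells (13.6%), and in 2.07% and 3.73% of thinned cells. The thinned levels, 22.7 and 40.6 CPM, were closer to each other than the full ones. Fibroblast-lineage cells, as a background, had a Cxcr3 UMI in 0.155% of tail suspension and 0.545% of non-tail suspension cells.

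The gates divided Cxcr3 differently from Ifng. Regulatory T cells were the highest gate in non-tail suspension, at 27.8 CPM (19.2 to 38.8) in tail suspension and 143 CPM (111 to 183) in non-tail suspension, and 11.9% and 39.7% of them had a UMI. Gamma-delta T cells had 39.5 and 86.3 CPM, CD8-gated cells 18.5 and 83.2 CPM, and NK-gated cells 10.8 and 47.2 CPM. CD4-gated cells had 13.6 CPM (7.61 to 22.4) in tail suspension and 9.07 CPM (4.69 to 15.8) in non-tail suspension, a log2 ratio of 0.58 (-0.61 to 1.81). Cxcr3 was lower in tail suspension in 5 of 6 gates, though the intervals of the libraries overlapped in the gamma-delta T, NK and ungated cells. In non-tail suspension the regulatory and gamma-delta T intervals overlapped each other. By cluster, the regulatory-rich cluster 11 had 31.6 and 121 CPM. The main T cell cluster 10 had 18.5 and 21.2 CPM (log2 ratio -0.20, -0.82 to 0.42), a difference within counting error.

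Not all Cxcr3 was in lymphocytes: T and NK lineage cells held 59.0% of its UMIs in tail suspension and 52.5% in non-tail suspension. Cluster 4, an unnamed cluster led by Ccl17, H2-Ab1, Cd74 and Mgl2, had 3 UMIs in 189 tail suspension cells and 42 UMIs in 82 non-tail suspension cells, or 1.25 and 36.0 CPM, and in non-tail suspension its interval overlapped that of the lymphocytes. At a finer clustering, a plasmacytoid dendritic-like group inside cluster 4 held 2 of these UMIs in 15 tail suspension cells and 24 in 34 non-tail suspension cells. Neutrophil-like cells had 0.982 CPM in tail suspension and 3.38 CPM in non-tail suspension, and macrophage-like cells 1.88 and 2.09 CPM.

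Other receptors that steer T cells were read in T and NK lineage cells. Of 9 measured, 2 were past 2-fold lower in tail suspension (background 4.65%) and 1 past 2-fold higher (8.18%). Their median log2 ratio was -0.12, against -0.04 over all measured genes. Cxcr6, the receptor of Cxcl16, had 175 CPM in tail suspension and 520 CPM in non-tail suspension (log2 ratio -1.57). S1pr1, which lets lymphocytes leave lymph nodes, had 80.0 and 28.7 CPM (1.48). Ccr7, the lymph node homing receptor, had 105 and 56.1 CPM (0.90).

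Counted over the members, those past 2-fold lower in tail suspension were 4 of 7 in all kept cells, where 7.23% of 18015 measured genes were, and none was past 2-fold higher, where 12.9% of all genes were. In T and NK lineage cells they were 4 of 7 (Ifng, Cxcl9, Cxcl10 and Cxcr3, with a background of 4.65%) and none was past 2-fold higher (8.18%). Both chemokines were low in this class, where Cxcl9 served above as a background. Cxcl9 had 5 UMIs in tail suspension and 52 in non-tail suspension, 20 of them in 1 cell, and Cxcl10 had 85 and 186. In the fibroblast lineage 2 of 6 measured members were past 2-fold lower (background 6.12%), in macrophage-like cells 2 of 6 (4.22%), and in neutrophil-like cells 4 of 6 (13.6%). In monocyte-like cells 1 of 5 was lower (3.43%) and none past 2-fold higher (9.8%), and in cluster 3 2 of 5 were lower (5.46%) and none past 2-fold higher (8.94%). It was 1 of 5 in osteoclast-like cells (8.09%) and 1 of 4 in B cells (17.5%). The B cell member was Cxcl9, with 0 UMIs in tail suspension and 28 in non-tail suspension, 25 of them in 1 cell. Mural-like cells and cluster 0 had none of 5 (5.32% and 7.55%).

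The genes that interferon gamma is known to switch on were lower together in most receiver classes. A list of 31 such targets had 30 in the files: guanylate-binding proteins, immunity-related GTPases, immunoproteasome and antigen-processing genes and others, several of which type I interferon also induces. In the fibroblast lineage 20 of 29 measured targets were past 2-fold lower in tail suspension (background 6.12%) and none past 2-fold higher (10.2%), with a median log2 ratio of -1.45 against 0.06 over all measured genes. Igtp, a GTPase, had 6.07 CPM in tail suspension and 61.0 CPM in non-tail suspension (-3.33), Iigp1, another, 42.0 and 282 CPM (-2.74), and Psmb8, an immunoproteasome subunit, 43.6 and 222 CPM (-2.35). Ly6a was nearly level (1399 and 1581 CPM, -0.18) and Wars, a tRNA synthetase, was higher in tail suspension (17.4 against 14.1 CPM, 0.30).

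Neutrophil-like cells again differed most, with 25 of 28 targets past 2-fold lower (background 13.6%) and a median of -3.42; Ifi47 had 15.6 CPM in tail suspension and 468 CPM in non-tail suspension, and Gbp2 43.2 and 755 CPM. Cluster 3 had 22 of 28 (median -2.01, background 5.46%), cluster 0 had 18 of 27 (-1.48, 7.55%), macrophage-like cells 18 of 28 (-1.30, 4.22%), monocyte-like cells 17 of 28 (-1.39, 3.43%) and mural-like cells 15 of 24 (-1.36, 5.32%). T and NK lineage cells had 13 of 28 (-0.99, 4.65%), B cells 9 of 22 (-0.65, 17.5%) and osteoclast-like cells 7 of 27 (-0.49, 8.09%). Counts for neutrophil-like and macrophage-like cells are pooled over clusters that the libraries filled unequally. The targets were not read within those clusters, so differences in cluster makeup and in level are not separated here. Gbp family members are related in sequence, and Tgtp1 and Tgtp2 are near-identical copies. Reads that match more than 1 such gene may go uncounted, so their single values are uncertain.

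**Figure D5:**
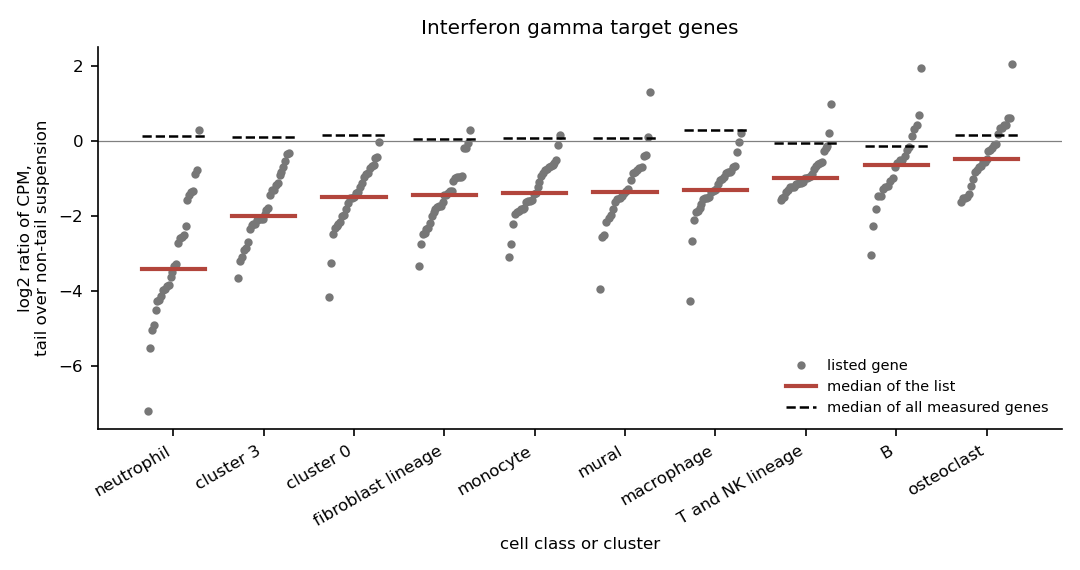
Log2 ratios of CPM, tail over non-tail suspension (y axis), of the measured interferon gamma targets in 10 classes and clusters (x axis); grey points are genes, red lines the list's median and dashed lines the median of all measured genes. The medians run from -3.42 in neutrophil-like cells to -0.49 in osteoclast-like cells; Tgtp1, at 0 UMIs in tail suspension neutrophil-like cells, is drawn at the ratio for 3 UMIs.

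Signalling genes of the pathway differed by class. In T and NK lineage cells Socs3, an inhibitor of cytokine signalling, had 74.1 CPM in tail suspension and 176 CPM in non-tail suspension (log2 ratio -1.25). In neutrophil-like cells Socs3 had 63.4 and 357 CPM (-2.49), and Socs1, a related inhibitor, 10.2 and 46.0 CPM (-2.18). The kinase Jak1 differed by less than 2-fold in both classes and in the fibroblast lineage, where it had 256 and 227 CPM.

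Genes of the type I interferon list were lower in these classes as well, and a response to interferon gamma cannot be told apart from one to type I interferon by the targets above. Of its 16 genes 14 were found in the files. In the fibroblast lineage 8 of 13 measured were past 2-fold lower in tail suspension (median -1.96, background 6.12%). It was 13 of 13 in neutrophil-like cells (-3.47, 13.6%), 11 of 13 in macrophage-like cells (-1.80, 4.22%) and 6 of 10 in T and NK lineage cells (-1.08, 4.65%). These counts are likewise pooled over the clusters of each class.

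Across 42 profiles of clusters by library, the genes most like each member differed by role. The correlations are over profiles that share libraries and depth, and are given as a description. Ifng was most like Cd160 (Pearson's r 0.952), Apol7b (0.928) and Cd96 (0.912), and Cxcr3 was most like Sh2d1a (0.928), Cd247 (0.919) and Gimap7 (0.907). Cxcl9 was most like Iigp1 (0.80), a listed target, and like Phf11d (0.793) and Tmem132a (0.710), which are on none of the lists. Cxcl10 was most like Oasl2 (0.808), Gbp2b (0.801) and Ifit3 (0.788), and Irf1 like Irgm1 (0.883), Parp14 (0.866) and Gbp2b (0.866). Ifngr1 was most like Crybg1 (0.830) and Ifngr2 like H3f3a (0.854), Cd14 (0.849) and Csf2ra (0.835). Among the members, Cxcl10 followed Irf1 (0.724) more closely than Cxcl9 did (0.192), Cxcl9 and Cxcl10 had 0.621, and Ifng and Cxcl9, whose cells differ, had -0.248.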

How the data were processed

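Single cells of the enthesis were measured in 1 tail suspension and 1 non-tail suspension library. The deposited values are UMI counts per gene and barcode, whole numbers and not normalized, from Cell Ranger 5.0.1 on GRCm38 per the submitters' processing notes; filters before deposit are not given in the sources used here, and every barcode has at least 500 UMIs. Whether the libraries were brought to equal depth is not stated.

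Of 15545 tail suspension and 11430 non-tail suspension barcodes (166606774 and 121868851 UMIs), those with fewer than 300 genes, or with a mitochondrial share of UMIs over 20%, were removed. Scrublet (scanpy 1.11.5, expected rates 12.4% and 9.14%) removed 3.40% and 1.21%; with seed 0 its automatic threshold marked no non-tail suspension cell, so seed 1 was used, chosen after seeing this. Both libraries were clustered together without integration on log counts per 10000, with 2000 variable genes that left out all listed genes, 30 principal components, 15 neighbours and Leiden resolution 1.0, giving 34 clusters. A cluster took its "X-like" name from marker lists of 27 classes: genes in at least 20% of its cells were ordered by their level against the other clusters' median, and a name needed the most markers in the top 10 and at least 3 in the top 50. The fibroblast lineage joins tenocyte-, sheath-, inflammatory and other fibroblast-like clusters. The annotations of the authors were not used here.

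Raw UMIs were summed per class and library. CPM carry exact Poisson intervals, shares Clopper-Pearson intervals and log2 ratios exact conditional binomial intervals, all at 95% and for counting error only. Classes with at least 100 cells in each library were compared; a gene needed 20 UMIs in the class to count as measured, no ratio was given where both counts were 3 or fewer, and a gene at 0 was set to 3 UMIs. The code was tested on simulated counts. Lymphocytes were gated in the order NK, gamma-delta T, regulatory, CD8, CD4. Named besides the members were list genes past 2-fold or with the highest totals, and for each member the 3 genes with the highest Pearson correlation of log2(CPM + 10) over profiles of at least 100 cells; a few list genes that were nearly level or opposite were named after their values were seen. The members, lists and markers were chosen with earlier results of these data known. Of the files' gene IDs, 32235 matched GENCODE M21. Some listed genes are not reported here.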

Additional observations from a re-analysis of the deposited data

Results flagged for a closer look

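Ifngr1 is singled out because its log2 ratio of tail over non-tail suspension was above 0 in some classes and below 0 in others, while the other members mostly had 1 sign. The ratio was 0.86 in cluster 0, 0.31 in monocyte-like cells and 0.29 in osteoclast-like cells. It was -0.80 in T and NK lineage cells, -0.062 in the fibroblast lineage, -0.43 in macrophage-like cells and -0.78 in neutrophil-like cells. Whether these ratios differ from each other was not tested, since each rests on 1 library in each group. The osteoclast-like cluster also had the granulocyte progenitor markers Prtn3 and Mpo among its leading genes.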

How the results depend on the processing

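The alternatives were median-of-ratios scaling, clustering at resolutions 0.5 and 2.0, thinning to 1000 UMIs, at least 500 or 1000 genes a cell, averaging over cells, at most 10% mitochondrial UMIs, keeping doublets, all variable genes, classes from each cell's own markers, and means within clusters; the limit of 40 cells and the single macrophage clusters were added after seeing the data. Over the 9 leading results 68 of 106 alternative values stayed within counting error, 37 moved and 1 reversed; over 25 others, 204 of 277 stayed, 70 moved and 3 reversed. The cause of a move was not tested. For Ifng in lymphocytes (-3.74) thinning gave -2.99, the mean over cells -2.85 and own markers -4.37; for Cxcr3 (-1.30) thinning gave -0.84 and the mean over cells -0.75. In the fibroblast lineage, median-of-ratios scaling gave -2.87 for Cxcl9, -1.76 for Cxcl10 and -0.77 for Irf1, and the mean over cells -2.73, -1.59 and -0.48. Means within clusters of at least 100 cells were -3.05, -2.63 and -1.31, and of at least 40 cells -2.74, -2.11 and -0.99; thinning gave -1.47 for Cxcl10 and -0.47 for Irf1. In macrophage-like cells Cxcl9 (-4.65) was -4.94 with median-of-ratios scaling, -3.64 thinned, -4.14 as a mean over cells, -3.51 and -3.84 at resolutions 0.5 and 2.0, -3.01 with all variable genes, -4.05 with doublets kept, -3.43 by own markers, -1.61 within cluster 5 and, reversed, 0.45 within cluster 1. Cxcl10 there (-1.66) was -1.94 with median-of-ratios scaling, -1.88 at resolution 2.0, -1.96 with doublets kept, -1.28 by own markers, -0.20 within cluster 1 and -0.0057 within cluster 5. The lymphocyte share of Ifng became 38.3% in tail suspension and 79.6% in non-tail suspension by own markers, and 96.2% in non-tail suspension at resolution 2.0. Other reversals were Ifngr1 in the fibroblast lineage (0.30 thinned, 0.22 as a mean over cells) and Ifngr2 in mural-like cells (0.0050 as a mean over cells). Median-of-ratios scaling shifted all genes by 0.29 in macrophage-like and 0.15 in neutrophil-like cells. Gene and mitochondrial limits were applied without clustering again. No paired analysis was possible because each group has 1 library. Ratios resting on under 100 cells in a cluster, and Ifng outside lymphocytes, are limited by depth.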
